A study of Mus musculus with 22 samples.

Results

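The regions described here are the open-chromatin peaks around 6 mouse genes of spermatids: the protamine genes Prm1, Prm2 and Prm3, the transition protein genes Tnp1 and Tnp2, and Hils1. Apart from that of Prm3, which stays in the cytoplasm, their products bind and pack spermatid DNA. A peak was taken when it overlapped one of these genes or lay within 10 kb of it in the mouse build GRCm38 (mm10), and each peak was counted once. The rule found 11 peaks of the 96049 in the table: 4 around the Prm1, Prm2, Prm3 and Tnp2 cluster on chromosome 16, 3 around Tnp1 on chromosome 1 and 4 around Hils1 on chromosome 11. Of the 11, 6 overlapped a gene or lay within 1 kb of it, and 5 lay farther out.

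Accessibility was measured by ATAC-seq, in which the Tn5 transposase cuts and tags open DNA, in 22 libraries from C57BL/6 mice aged 8 to 12 weeks, from a study of how open chromatin in spermatogonia responds when TERT, the protein subunit of telomerase, is deleted in the adult. On day 7 after tamoxifen, flow cytometry sorted the spermatogonia into MCAM-high KIT-negative, MCAM-medium KIT-negative and MCAM-medium KIT-positive cells (MCAM is a surface adhesion molecule, and KIT marks differentiating spermatogonia). The titles call 8 of these libraries TERT-hetero, here the controls (n = 3, 2 and 3 in that order), and 9 TERT-deleted (n = 3 each). The genotype entry, TertCreER/+:Rosalsl-Tdtomato/+, is the same for both, so that all 17 carry 1 CreER allele and a Cre reporter, and the split into control and deleted rests on the titles. The other 5 libraries, TertTdtomato/+ with no tamoxifen time given, hold later germ cells, labelled spermatocytes or round spermatids. They differ from the spermatogonia in allele as well as in stage, and these cannot be told apart.

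Late spermatids condense their DNA by exchanging histones for transition proteins and then for protamines, small arginine-rich proteins that pack the sperm genome. The protamine and transition protein genes are classically transcribed in round spermatids, where their mRNAs are stored before translation. Hils1 encodes a linker-histone-like protein of elongating spermatids, and its gene sits inside Sgca, the gene of a muscle sarcoglycan. CREM, a factor of the cAMP response family, and its coactivator FHL5 are known to drive many of these postmeiotic genes.

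Each library held 922085 to 3358377 counts over all peaks. At the only peak at a gene end of Tert itself, control spermatogonia spanned 13.5 to 30.0 and deleted ones 12.5 to 21.1 CPM (counts scaled to library size, with TMM factors), and the mean log2 difference over the 3 populations of -0.28 did not pass (edgeR adjusted p = 0.974). The deleted segment of Tert is not given in the labels, so that peak does not check the titles. By markers, the gene-end peaks of 6 of 8 round spermatid markers summed to 199 to 238 CPM in the later libraries and 29.1 to 63.9 in spermatogonia, those of all 8 spermatocyte markers to 310 to 421 and 209 to 296, and those of all 9 markers of undifferentiated spermatogonia to 111 to 150 and 244 to 411. The spermatocyte markers were mixed against control KIT-positive cells. Of the 8, 5 rose, Hormad1 (log2 -2.15) and Spo11 (-2.70) fell and Tex101 did not pass. Over all gene-end peaks 19.4% rose and 31.1% fell. Summed peaks of Sertoli (4 of 6 genes had a peak), Leydig (1 of 5), immune (2 of 5) and peritubular or endothelial markers (3 of 5) were not at 0 in any group, and Sertoli peaks summed to 37.6 to 46.5 CPM in later and 53.0 to 97.6 in spermatogonial libraries. The titles of 4 of the 5 later libraries and their library names contradict each other on spermatocyte or round spermatid, and all 5 names carry Het1 as if from 1 animal. The 5 were kept as 1 group, described singly further on. The labels do not tie replicates to separate animals, and p-values here reflect only how far these libraries spread, which may be technical.

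A peak covered the start of 4 of the 6 genes, Prm1, Prm3, Tnp1 and Hils1. The Prm2 start lay 861 bp and the Tnp2 start 2002 bp from the nearest peak. Of 21238 protein-coding starts in the RefSeq table, 12974 (61.1%) lay in a peak. The 250 bases upstream of each start are printed 5′ to 3′ from RefSeq (GRCm38.p6), because the comparisons below turn on whether a peak covers these stretches. A stretch outside every peak has no counts here, so how open it was is not known. Capitals mark 3 letter patterns searched on both strands: TGANNTCA, a loose form of the cAMP response element that CREM binds, and TATAAA and TATATA, forms of the TATA box. The patterns were chosen with the sequences in view.

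Prm1 (chr16:10796824-10797073, strand minus): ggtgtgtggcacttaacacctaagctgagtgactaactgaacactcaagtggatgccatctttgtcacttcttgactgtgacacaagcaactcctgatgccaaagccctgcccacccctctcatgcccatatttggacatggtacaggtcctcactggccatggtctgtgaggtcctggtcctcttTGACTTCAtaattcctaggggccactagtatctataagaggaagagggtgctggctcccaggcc

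Prm3 (chr16:10790915-10791164, strand minus): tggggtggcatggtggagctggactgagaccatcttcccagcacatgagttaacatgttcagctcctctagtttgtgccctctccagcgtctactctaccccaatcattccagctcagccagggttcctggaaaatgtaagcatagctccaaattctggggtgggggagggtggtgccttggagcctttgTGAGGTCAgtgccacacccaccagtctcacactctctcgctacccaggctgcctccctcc

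Tnp1 (chr1:73015900-73016149, strand minus): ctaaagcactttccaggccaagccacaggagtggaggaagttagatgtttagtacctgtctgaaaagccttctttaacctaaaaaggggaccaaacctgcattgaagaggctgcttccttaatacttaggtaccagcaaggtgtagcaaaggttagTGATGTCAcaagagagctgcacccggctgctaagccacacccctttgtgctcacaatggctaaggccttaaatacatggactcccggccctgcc

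Hils1 (chr11:94967343-94967592, strand plus): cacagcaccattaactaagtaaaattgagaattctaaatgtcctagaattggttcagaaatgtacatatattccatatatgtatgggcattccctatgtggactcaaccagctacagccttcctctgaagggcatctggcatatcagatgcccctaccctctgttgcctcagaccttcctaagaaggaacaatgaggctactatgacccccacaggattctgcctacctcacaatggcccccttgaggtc

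Prm2 (chr16:10792106-10792355, strand minus): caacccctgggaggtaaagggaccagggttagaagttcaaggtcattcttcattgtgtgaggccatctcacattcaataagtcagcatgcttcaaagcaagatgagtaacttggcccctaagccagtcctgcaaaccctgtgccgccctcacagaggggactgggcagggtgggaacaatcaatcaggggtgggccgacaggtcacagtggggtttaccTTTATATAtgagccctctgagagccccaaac

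Tnp2 (chr16:10788656-10788905, strand minus): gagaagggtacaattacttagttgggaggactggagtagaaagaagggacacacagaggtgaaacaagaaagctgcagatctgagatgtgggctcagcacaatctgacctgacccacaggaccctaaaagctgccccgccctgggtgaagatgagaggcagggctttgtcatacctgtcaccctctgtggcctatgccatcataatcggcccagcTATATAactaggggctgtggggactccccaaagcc

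TGANNTCA occurred upstream of Prm1 as TGACTTCA at positions -64 to -57, of Prm3 as TGAGGTCA at -60 to -53, and of Tnp1 as TGATGTCA at -94 to -87, with -1 as the base before the start. These are 3 of the 6 genes, against 11.9% of 32807 RefSeq promoters of the same length, and all 3 matches lay inside a peak. Over 300 bases that reach past the start, 4 of the 6 held the pattern, Hils1 included, against 14.1% of promoters. The full palindrome TGACGTCA was upstream of none of the 6 and of 1.55% of all promoters. TATATA occurred upstream of Prm2 and Tnp2 (5.25% of all promoters), and TATAAA, read on the other strand and overlapping it, upstream of Prm2 (12.4%). Prm2 and Tnp2 are the genes whose starts lay in no peak. Only exact matches were searched, and near forms such as tataag, printed in the Prm1 stretch, were not counted. CCAAT, not capitalised, occurred upstream of Prm3 and Hils1 (33.8%). The 6 stretches held 0 to 2 CpG dinucleotides, against a median of 6 over all promoters, and 45.6% to 56.4% G and C, against a median of 52.4%. A match is a run of letters and does not show that a factor was bound.

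In later germ cells the starts of Prm1, Prm3, Tnp1 and Hils1 were open at 20.8 to 57.3 CPM on average, and in control spermatogonia they held at most 15 counts in any library. Against control KIT-positive spermatogonia, the nearest stage in the series, 10 of the 11 peaks rose and 1, over Socs1, did not pass, whereas 29.2% of all 73134 peaks tested rose. The median log2 fold change of the 11 was 3.46, against 0.12 over all peaks tested. Of the 11, 7 passed the filter on low counts only through the later libraries and so had to differ, and for those the values below are a description. Of the 4 that passed without them, 3 rose: the Prm3 start, the peak 1282 bp beyond the Tnp2 end, and the outlying peak upstream of Hils1. A gain in every cell and a larger share of cells with an open site cannot be told apart in these bulk libraries.

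**Figure D1:**
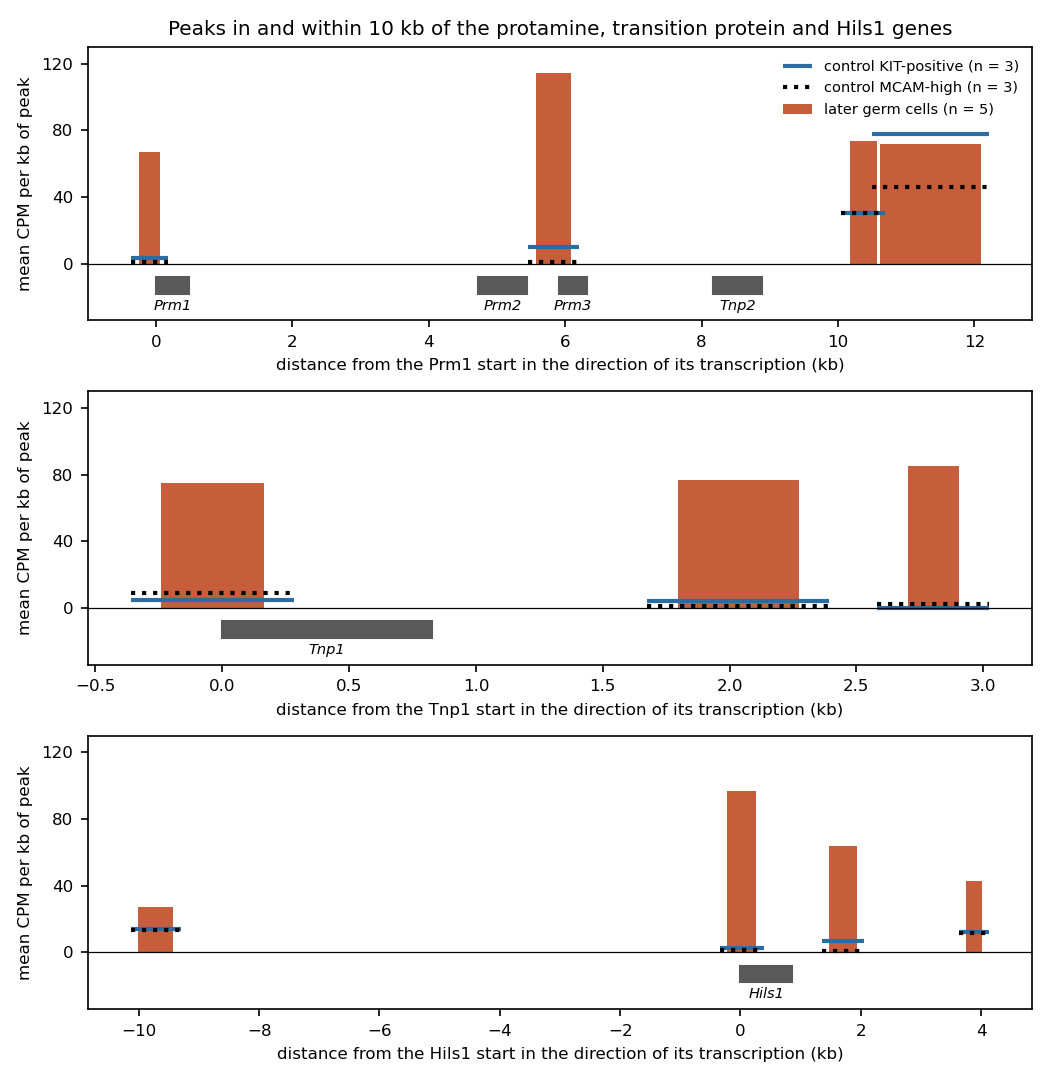
Mean CPM per kb of peak at the 11 peaks, drawn to scale against the distance in kb from the start of Prm1, Tnp1 or Hils1 in the direction of transcription (orange bars, later germ cells, n = 5; blue lines, control KIT-positive, n = 3; dotted lines, control MCAM-high, n = 3; grey boxes, genes). The Prm3 start reached 114 CPM per kb in later germ cells, no bar stands over the starts of Prm2 and Tnp2, and only the wide Socs1 peak at the right of the upper panel is as high in KIT-positive cells.

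In the protamine cluster the starts of Prm3 and Prm1 opened, while Prm2 and Tnp2 had no peak over the gene. The peak over the Prm3 start (chr16:10790743-10791244), which reaches toward Prm2, had the highest mean of the 11 per length, 114 CPM per kb in later germ cells. Prm3 encodes an acidic protamine-like protein that stays in the cytoplasm. Control MCAM-high libraries gave 0.699, 0 and 0.526 CPM, control MCAM-medium libraries 6.88 and 1.09, and control KIT-positive libraries 4.49, 6.23 and 4.74. The 5 later libraries gave 43.4, 49.5, 73.1, 59.1 and 61.4 CPM, all above the highest of the 17 spermatogonial libraries at 7.23. Their mean was 57.3 ± 11.4 (SD, n = 5), against 5.15 ± 0.938 (n = 3) in KIT-positive cells, which is 3.46 ± 0.39 on the log2 scale (± SE here and for every log2 fold change below; edgeR adjusted p = 1.05e-10).

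Prm1 encodes the protamine shared by all mammalian sperm. Its start peak (chr16:10796759-10797070) held 0, 2 and 0 counts in control MCAM-high, 1 and 2 in MCAM-medium, and 0, 1 and 4 in KIT-positive libraries. The later libraries held 47, 22, 36, 38 and 42 counts, or 16.3, 13.6, 26.6, 24.7 and 23.0 CPM, and the highest spermatogonial value was 5.91 CPM. The 2 groups of stages did not overlap, and the log2 fold change against KIT-positive cells was 3.98 ± 0.64 (edgeR adjusted p = 6.13e-07). Prm2, whose product is made as a precursor and trimmed on the DNA, had no peak over its gene, and the 250 bases upstream of it held none of a peak.

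Toward Tnp2 the cluster ended in peaks that were open at every stage. Tnp2 encodes a zinc-binding transition protein. Neither its gene nor its start was covered, and the nearest peak (chr16:10786254-10786653) lay 1282 bp beyond its end and 718 bp from Socs1. It gave 24.7, 28.5, 28.8, 35.7 and 29.6 CPM in the later libraries and 3.73 to 18.1 in the 17 spermatogonial ones, so these did not overlap, and it rose by 1.19 ± 0.34 against KIT-positive cells on the log2 scale (edgeR adjusted p = 0.00296). With the 1 later library whose title and name agree the call was lost (1.30, edgeR adjusted p = 0.108). The adjoining peak of 1482 bp (chr16:10784727-10786209) lies over Socs1, an inhibitor of cytokine signalling with no role in chromatin packing. At 106.8 ± 13.2 CPM in later and 115 ± 24.8 in KIT-positive cells it did not pass (log2 -0.13 ± 0.20, edgeR adjusted p = 0.595), and the sign was positive with DESeq2 or with its size factors (0.06 in both).

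**Figure D2:**
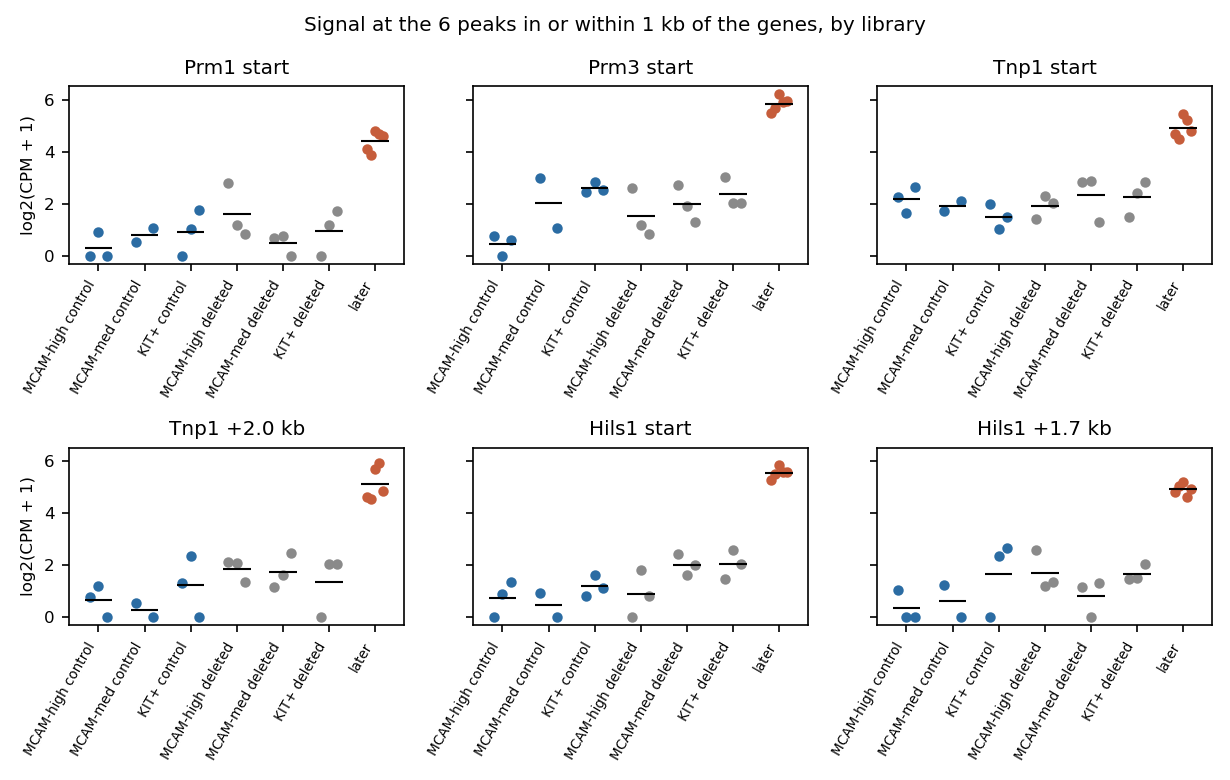
Signal on the log2(CPM + 1) scale in each of the 22 libraries (points; bars are group means) at the 6 peaks in or within 1 kb of the genes, with control groups in blue, deleted groups in grey and later germ cells in orange. At each of the 6 the 5 later libraries lie above all 17 spermatogonial ones, as with 43.4 CPM at the Prm3 start in the lowest later library against 7.23 in the highest spermatogonial one.

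At Tnp1, which encodes the most abundant transition protein, all 3 peaks rose. The start peak (chr1:73015736-73016139) also overlaps 1700027A15Rik, a long noncoding RNA gene, and the reads cannot be divided between them. It gave 3.84, 2.16 and 5.26 CPM in control MCAM-high, 2.29 and 3.27 in MCAM-medium, and 1.04 to 3 in KIT-positive libraries, which held 4, 1 and 3 counts. The later libraries gave 24.3, 21.7, 42.1, 35.7 and 26.9, and the log2 fold change against KIT-positive cells was 3.84 ± 0.51 (edgeR adjusted p = 6.98e-09). It was the only start peak of the 4 with a count in every spermatogonial library.

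The other Tnp1 peaks lay beyond the gene. The one 970 bp past its end (chr1:73013627-73014104) held 2, 3 and 0 counts in control MCAM-high, 1 and 0 in MCAM-medium and 2, 4 and 0 in KIT-positive libraries, and 68, 36, 69, 91 and 51 in the later ones. Its log2 fold change against KIT-positive cells was 4.48 ± 0.58 (edgeR adjusted p = 4.5e-09). The one 1878 bp past the end (chr1:73012996-73013196) was at 0 in all 3 KIT-positive libraries and held 53, 9, 30, 33 and 32 counts in the later ones, at least 21.9-fold higher when the KIT-positive group is set at the 3 counts that a count of 0 allows. Both peaks had 4 or more spermatogonial libraries at 0 and later values that did not overlap them. Per kb, the 3 Tnp1 peaks had like levels in later germ cells, at 74.8 ± 21.1, 77.1 ± 35.7 and 85.1 ± 33.4 CPM per kb from the start outward (SD, n = 5).

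Hils1 had the largest fitted rise of the 4 starts against KIT-positive cells. Its start peak (chr11:94967377-94967858) held 0, 2 and 3 counts in control MCAM-high, 2 and 0 in MCAM-medium and 1, 2 and 2 in KIT-positive libraries. The later libraries held 108, 72, 77, 73 and 85, or 46.6 ± 6.94 CPM against 1.34 ± 0.676, a log2 fold change of 5.11 ± 0.52 (edgeR adjusted p = 3.58e-12). Its range of 1 SE overlapped that of the Prm1 start, and differences between peaks were not tested. A peak 617 bp past the Hils1 end (chr11:94969073-94969533), within Sgca, held 3, 0 and 0 counts in MCAM-high, 3 and 0 in MCAM-medium and 0, 4 and 9 in KIT-positive libraries, and 77, 51, 48, 36 and 54 in the later ones. It rose by 3.14 ± 0.52 on the log2 scale (edgeR adjusted p = 1.07e-06).

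The farther Hils1 peaks changed less and overlapped between stages. The one 2886 bp past the gene (chr11:94971342-94971606), also within Sgca, gave 7.14 to 13.5 CPM in later and 0.459 to 10.4 in spermatogonial libraries, with a log2 fold change of 1.75 ± 0.56 (edgeR adjusted p = 0.00791). The one 9425 bp upstream (chr11:94957582-94958168), whose nearest gene is the collagen gene Col1a1 at 4540 bp, gave 8.86 to 22.9 and 3.21 to 13.4 CPM, with 1.01 ± 0.43 (edgeR adjusted p = 0.041). That call was lost in 10 of 18 alternatives, among them 3 of the 4 subsets of the later libraries taken by 1 label, with edgeR or DESeq2 adjusted p between 0.0129 and 0.848 over the 18. The call of the peak 2886 bp past the gene was lost without KIT-positive library 3 (log2 1.33, edgeR adjusted p = 0.0762) and with the later libraries named spermatocyte alone (1.65, adjusted p = 0.104) or the 1 later library whose title and name agree (2.03, adjusted p = 0.185).

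Counting libraries in place of a fit, 8 of the 11 peaks had all 5 later libraries above all 17 spermatogonial ones, against 16.3% of all 96049 peaks. The exceptions were the Socs1 peak and the 2 farther Hils1 peaks. Against control MCAM-high cells, the other end of the spermatogonial series, all 11 peaks rose, with a background of 33.5% higher among all peaks tested and a median of 4.77 against 0.02. This comparison shares the later libraries with the former. The same 7 peaks passed the filter on low counts only through those libraries and so had to differ here too. Of the 4 that passed without them, the Prm3 start rose by 6.87 and the Tnp2-side peak by 1.28 on the log2 scale. The call of the Tnp2-side peak was kept in 17 of 18 alternatives. The upstream Hils1 peak rose by 0.98 and the Socs1 peak by 0.64. Among the 11 calls, that of the upstream Hils1 peak (0.98, edgeR adjusted p = 0.0257) was lost in 8 of 18 alternatives, with adjusted p up to 0.9. That of the peak 2886 bp past Hils1 (1.84, edgeR adjusted p = 0.00192) was lost in 2, with edgeR adjusted p up to 0.143. Where MCAM-high libraries held 1 to 3 counts in all, the ratio of pooled counts per total was 110.6 (95% exact interval 37.6 to 538) at the Prm3 start, 60.5 (16.5 to 504) at the Prm1 start and 58.0 (19.6 to 283) at the peak 617 bp past Hils1. These intervals cover counting error only. Of the remaining peaks, the Hils1 start rose by 5.89 ± 0.50, the Tnp1 peaks by 2.99 to 5.57, and the Socs1 peak by 0.64 ± 0.20 (edgeR adjusted p = 0.00491) on the log2 scale. The Socs1 call was lost without MCAM-high library 2 (0.52, edgeR adjusted p = 0.0511) and in 3 of the 5 subsets of the later libraries (adjusted p up to 0.134).

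**Figure D3:**
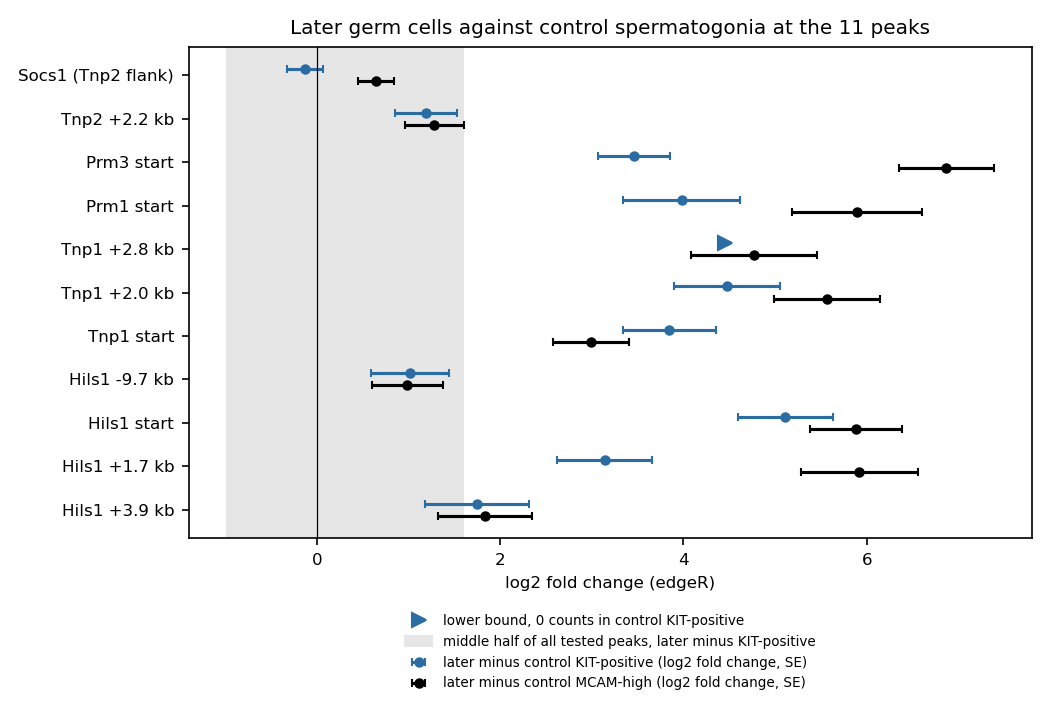
Log2 fold change (edgeR; bars are SE) of later germ cells against control KIT-positive (blue) and control MCAM-high spermatogonia (black) at the 11 peaks; the triangle is the lower bound where KIT-positive libraries held 0 counts, and the grey band spans the quartiles of all tested peaks against KIT-positive cells (-0.98 to 1.59). The 4 gene starts lie between 2.99 and 6.87, right of the band, while the Socs1, Tnp2-side and outlying Hils1 peaks lie in or near it.

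The later libraries were lower under 1 title than under the other. Libraries 1 and 2, titled spermatocytes and named round spermatid, gave a sum over the 6 near peaks of 172 and 183 CPM. Libraries 4 and 5, titled round spermatids and named spermatocyte, gave 249 and 215, and library 3, round spermatid by both labels, gave 285. The name of library 3 also ends in 150k and those of the others in 75k, which the labels do not explain. For library 3, stage and this difference cannot be told apart. Split by title, 7 of the 11 peaks had every round spermatid library above every spermatocyte library and 0 had the reverse. Of all peaks tested, 12.1% were higher and 15.1% lower in this way. The 7 were the Prm1, Prm3, Tnp1 and Hils1 starts, the Tnp1 peak 970 bp past the gene, the Tnp2-side peak and the Socs1 peak. Split by library name, 0 of the 11 were higher and 1, the Tnp2-side peak, was lower, against 10.9% of all peaks higher and 11.8% lower. With 2 libraries against 3 no test was made.

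Among control spermatogonia, the Prm3 start was already more open in KIT-positive than in MCAM-high cells. The counts were 6, 6 and 8 against 2, 0 and 1, and the groups did not overlap in CPM, although MCAM-medium library 1 held 15 counts. The log2 difference was 3.40 ± 1.09 (edgeR adjusted p = 0.0257). The Socs1 peak rose from 73.7, 58.3 and 72.5 CPM to 88.4, 119.4 and 137.5 (0.77 ± 0.21, adjusted p = 0.00956 in edgeR). These are 2 of the 5 peaks that passed the filter on low counts among spermatogonia, and 9.59% of all 57289 peaks tested rose. The other 3 tested peaks, on the Tnp2 side and in the outer Hils1 flanks, gave log2 differences between -0.02 and 0.07.

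The Prm3 difference rested on few counts. Even numbers made up 50.7% to 73.9% of the KIT-positive libraries' nonzero counts, against 51.4% to 61.9% in MCAM-high and 49.3% to 49.9% in later ones, and the part of this in the result was not tested. Without KIT-positive library 2 the adjusted p was 0.0618, and without any 1 MCAM-high library or KIT-positive library 3 the peak fell below the filter and was not tested. Without MCAM-high library 2 the Socs1 difference did not pass either (log2 0.66, adjusted p = 0.0738).

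In the deleted libraries, which share none with the controls, the Socs1 peak rose again between MCAM-high (65.9, 69.4 and 60.5 CPM) and KIT-positive cells (132.9, 143.9 and 116.3), by 0.98 ± 0.22 (edgeR adjusted p = 0.00151). It was the 1 tested peak of 5 that passed, against 9.4% of all peaks. The Prm3 start held 6, 2 and 1 counts in deleted MCAM-high and 8, 5 and 4 in deleted KIT-positive libraries, a log2 difference of 0.90 ± 0.97 (adjusted p = 0.587 in edgeR). The difference between the 2 genotypes in this step, -2.50 ± 1.46, did not pass (edgeR adjusted p = 0.996) and the step at Prm3 was not shown to differ between them.

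No peak of the 5 tested passed in any comparison of deleted with control cells. The backgrounds were 0.0489% of peaks for MCAM-high, 0.00873% for MCAM-medium and 0.00349% for KIT-positive cells, and 0.124% for the mean of the 3 populations (28, 5, 2 and 71 peaks in edgeR). At an unadjusted edgeR p under 0.05, 0, 1, 0 and 1 of the 5 passed, against 3364, 2439, 2054 and 3163 of all 57289 peaks tested. Each time it was the peak 2886 bp past Hils1. That peak gave 0.459 to 5.99 CPM in control and 0.693 to 10.4 in deleted libraries. It passed the filter on low counts only through deleted libraries. A higher value in deleted cells was thus favoured in advance, and its values are a description. DESeq2 called none of the 5 in any of the 4, but for MCAM-medium it gave 1 of them no adjusted p. Without the filter on low counts all 11 peaks were tested, and edgeR called 0 in each of the 4. The peak 2886 bp past Hils1 held 9, 6 and 7 counts in control and 10, 12 and 4 in deleted MCAM-high libraries, 1 and 1 against 5, 1 and 14 in MCAM-medium, and 8, 2 and 3 against 6, 9 and 12 in KIT-positive. Its mean log2 difference was 1.69 ± 0.52 (edgeR adjusted p = 0.426). At the Prm3 start the difference was 2.26 ± 1.16 in MCAM-high (adjusted p = 0.856), and it was near 0 elsewhere (-0.26 ± 0.98 for MCAM-medium, -0.24 ± 0.90 for KIT-positive, edgeR adjusted p = 1 in both).

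**Figure D4:**
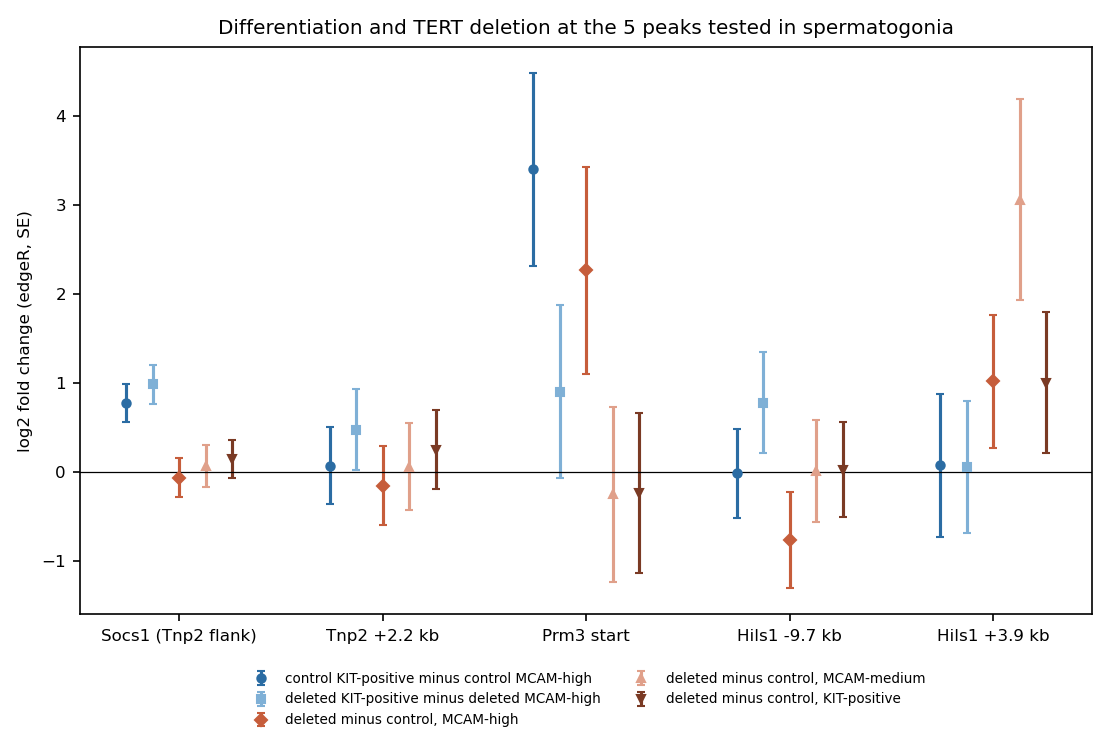
Log2 fold change (edgeR; bars are SE) at the 5 peaks tested among spermatogonia, for KIT-positive minus MCAM-high cells in control (circles) and deleted libraries (squares) and for deleted minus control cells in each population (diamonds, upward and downward triangles). The Socs1 differences of 0.77 and 0.98 have short bars, while the Prm3 values run from -0.26 to 3.40 with bars of about 1.

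As 6 peaks were below the filter on low counts, the 6 near peaks were also added up per library as a description. The sum was 6.29, 5.18 and 7.36 CPM in control MCAM-high and 21.1, 13.5 and 8.53 in deleted MCAM-high libraries, which did not overlap. These sums rest on 18, 12 and 14 counts against 25, 21 and 11. How often other sets of peaks part the same libraries was not counted, so the gap is no result about the deletion. MCAM-medium libraries gave 12.4 and 5.44 against 19.3, 13.9 and 11.9, and KIT-positive ones 9.73, 18.7 and 15.4 against 12.7, 18.7 and 20.9, and these did overlap. The other 15653 peaks that were highest in all 5 later libraries were also higher in the same libraries: together they took 51490 to 57810 CPM in control MCAM-high, 68800 to 73170 in deleted MCAM-high and 67280 to 75080 in control KIT-positive libraries, and the part of this in the sums of the 6 was not tested. The sums were 172 to 285 CPM in the later libraries, so that the deleted MCAM-high libraries stayed far below them. Deleted MCAM-high library 1 held 7 counts at the Prm1 start and 6 at each of the Prm3 start and the peak 617 bp past Hils1.

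Other genes of spermatid chromatin and gene control changed in both directions in the later libraries. The list, chosen with earlier results of these data known, held 36 genes, and 30 had a peak within 1 kb of a gene end. Of these 30, 13 rose, 8 fell and 9 did not pass against KIT-positive cells, with a median of 0.26, whereas 19.4% of 15133 gene-end peaks rose and 31.1% fell, with a median of -0.20. Of the 13 that rose, 7 did not pass the filter on low counts among spermatogonia: H2bl1, H2al2a, H2ap, Chd5, Cdyl, Fhl5 and Acrv1. For these a rise was close to fixed in advance, and their values are a description. With the 1 later library whose title and name agree the counts were 8 and 4, and with those titled spermatocytes 11 and 4.

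Those that rose included the spermatid linker histone gene H1f7 (9.36 to 51.5 CPM, log2 2.49 ± 0.33, edgeR adjusted p = 1.01e-08), H1f6 of the testis linker histone H1t (1.93 ± 0.42), H2bl1 of an H2B variant (3.94 ± 0.59) and Chd5, a remodeller needed for histone removal (2.19 ± 0.47). Acrv1, of an acrosomal protein, held 2 counts in KIT-positive libraries and 237 in the later ones, a ratio of 49.5 per total (95% exact interval 13.5 to 410.9). H2ap, of a short H2A variant, and Fhl5, the coactivator of CREM, held 0 counts in KIT-positive cells and were at least 11.7-fold and 13.5-fold higher in later ones. The gene-end peak of Crem itself, at 107.7 CPM in KIT-positive and 72.7 in later cells, fell (-0.59 ± 0.21, edgeR adjusted p = 0.0145). So did those of H2bc1, of the testis histone TH2B (-0.93 ± 0.20), and Ybx2, whose product stores protamine mRNA (-0.85 ± 0.26). The largest falls were at Epc1 (-1.83 ± 0.25), of a histone acetyltransferase complex, and at Carm1 (-1.61 ± 0.19), an arginine methyltransferase.

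Between control MCAM-high and KIT-positive cells, 7 of the 23 genes tested rose and 0 fell, against 18% higher and 3.84% lower over gene-end peaks. They were Ybx2 (1.70 ± 0.30), Sox30 (1.19 ± 0.30), H2bc1 (1.17 ± 0.22), Rfx2 (1 ± 0.25), Nasp (0.87 ± 0.25), Kdm3a (0.74 ± 0.22) and Crem (0.73 ± 0.22). Rfx2 and Sox30 encode transcription factors of spermiogenesis, and Kdm3a encodes a histone demethylase required for Prm1 and Tnp1 transcription. With total counts in place of TMM scaling, the share of higher among all peaks called in this step moved from 61% to 44.9%, and in the deleted libraries from 68.4% to 49.6%. The 7 genes became 3 without KIT-positive library 3 and 4 without MCAM-high library 1, with 1 lower each time, and none changed sign under the scalings run. None of the 23 passed for the mean effect of the deletion (edgeR adjusted p of 0.96 or more).

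**Figure D5:**
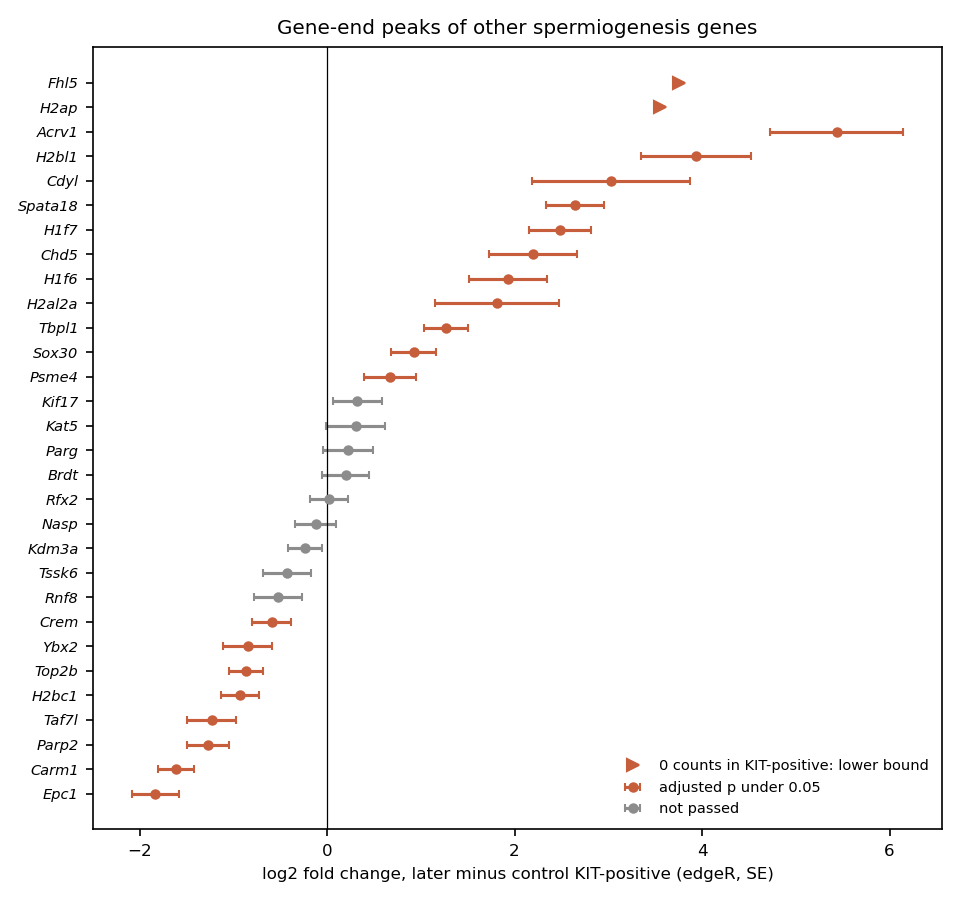
Log2 fold change (edgeR; bars are SE) of later germ cells against control KIT-positive spermatogonia at the gene-end peaks of 30 other genes of spermiogenesis; coloured points passed at an adjusted p under 0.05, grey points did not, and triangles are lower bounds where KIT-positive libraries held 0 counts. The genes spread from -1.83 at Epc1 to 5.44 at Acrv1 on both sides of 0.

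Of 17289 gene-end peaks of other protein-coding genes, those most like the 6 near peaks over the 22 libraries (Pearson r of log2(CPM + 1) with their summed signal) lay at Ccer1 (r = 0.970), Lrrc18 (0.968), Ankrd53 (0.967), 1700003F12Rik (0.967) and Znrf4 (0.961). The 22 points share libraries and their depth, and the 5 later libraries lie apart from the other 17. Ccer1 gave 247 CPM on average in later and 34.6 in spermatogonial libraries, and Lrrc18 38.6 and 1.39.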

How the data were processed

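The authors deposited 1 table of raw read counts for 22 ATAC-seq libraries over 96049 shared peaks. The submitters' processing notes name the tools Bowtie2, FastQC, Picard and SAMtools and, with no role stated, the builds GRCm38, hg19 and mm10. How peaks were called and merged, the counting tool and any duplicate filter or Tn5 offset are not given in the sources used here. An excess of even counts, as some libraries had, makes counting intervals too narrow. Peak starts were used as deposited. Genes, strands and sequences came from RefSeq tables (GRCm38.p6), which hold no exons.

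Tests used edgeR 4.0.16 under R 4.3.3 (quasi-likelihood F tests after filterByExpr by group and TMM scaling, Benjamini-Hochberg adjustment over all peaks tested, threshold 0.05). The 17 spermatogonial libraries entered 1 fit (57289 peaks) and the 13 heterozygous ones another (73134 peaks). Alternatives were DESeq2 1.42.0, other scalings and flanks, no filter, a replicate block, left-out libraries and subsets of the later libraries. On simulated counts for later minus KIT-positive cells, 59169 of 73134 simulated peaks passed the filter, and 80% of log2 changes of 2 and 96.5% of 3 were recovered, with 3.85% of calls false. The simulation gave every peak the same dispersion and a mean pooled over groups, with 85 changed peaks tested at each size. In the data 52% of peaks tested were called, so these rates do not carry over to the 11 peaks. A group at 0 was set at 3 counts, and intervals were exact binomial at 95%. Peaks in or within 1 kb of a gene are given by library, others by range or if called. Genes of lists are given by the gene-end peak with the most counts. Members and lists were chosen with earlier results of these data known.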

Additional observations from a re-analysis of the deposited data

Results flagged for a closer look

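Among the 5 later libraries, 1 of the 11 peaks had a library far from the others. At the peak 1878 bp past the Tnp1 end, later library 2 gave 5.57 CPM (9 counts), and the other 4 gave 17.5 to 22.2. Its gap to the nearest of them was 0.721 of the whole range, above the limit of 0.710 for 5 values. Chance alone sets apart about 1 in 20 groups, and 11 were looked at. Library 2 was also the lowest of the 5 at the Tnp1 start, the Tnp1 peak 970 bp past the gene, the Prm1 start and the Socs1 peak, where its gap to the next library did not pass that limit.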

How the results depend on the processing

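Of the 11 peaks, 7 passed the filter on low counts only through the later libraries, so counts against KIT-positive and MCAM-high cells are descriptions. Against KIT-positive cells, 10 of the 11 peaks rose, and the count was 6 of 6 with a flank of 1 kb and 16 of 24 with a flank of 50 kb. It was 7 with the 1 later library whose title and name agree and 8 to 10 with the other subsets of the later libraries or without any 1 library. Against MCAM-high cells the count of 11 became 6 and 17 with these flanks, and 7 with the 1 later library whose title and name agree, chosen after seeing the data, a fit in which that library is assumed to vary like the other groups. For KIT-positive minus MCAM-high, the count of 2 in controls became 1 and 5, and that of 1 in deleted libraries became 0 and 3, with flanks of 1 kb and 50 kb. Leaving out 1 library at a time gave 0 to 2 in controls, with 0 without MCAM-high library 2 and 1 without any of the other MCAM-high libraries or KIT-positive libraries 2 and 3, and the cause was not tested beyond the peak falling below the filter. The change of the Socs1 peak against KIT-positive cells turned positive with DESeq2 (0.059), with DESeq2 size factors (0.061), with the later libraries named spermatocyte (0.0012) and with the 1 whose labels agree (0.11), none of which passed, and the cause was not tested. DESeq2 size factors moved the median over all peaks from 0.12 to 0.31 in that comparison, and total counts moved it from -0.05 to -0.22 for KIT-positive minus MCAM-high in controls.

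The correlation of deviations between libraries of 1 replicate number was -0.419 to 0.0505 in controls and -0.0804 to 0.0509 in deleted ones. Between libraries of different numbers it was -0.225 to 0.419 and -0.0584 to 0.0803. Deviations from the mean of a small group sum to 0, which constrains these correlations. They therefore cannot show whether libraries of the same number are paired. With a replicate block the counts of peaks called stayed at 2 in controls and 1 in deleted libraries for the KIT-positive step and at 0 for each of the 4 comparisons of deleted with control. Calls over all peaks fell from 9006 to 6505 and from 7875 to 5973. At 922085 to 3358377 counts per library, 6 of the 11 peaks did not pass the filter on low counts among spermatogonia. Without the filter all 11 were tested, and the counts stayed at 2 and 1 for the KIT-positive step and 0 for each comparison of deleted with control.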
